A study of Homo sapiens with 29 samples.

Results

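The insulin-like growth factor (IGF) system was followed through its ligands, receptors and binding proteins in human myoblasts depleted of the zinc finger transcription factor ZNF148. The 10 members were IGF1, IGF2, IGF1R, IGF2R, IGFBP2, IGFBP3, IGFBP4, IGFBP5, IGFBP6 and IGFBP7, chosen by name and found through the RefSeq accessions of 13 probes among the 22439 genes named on the array. All 10 had a tested probe, meaning one well above background on at least 2 arrays, as did 18398 genes in all. LHCN-M2 cells are a line of human myoblasts derived from a selected clone and immortalized with telomerase and CDK4. They received 20 nM of siRNA against ZNF148 (siZNF148), with pooled or single siRNA not stated for the arrays, or of nontargeting siRNA (siControl) and were harvested after 24, 48 or 96 h of growth media or after 48 or 96 h of differentiation media. This gave 10 groups on 29 arrays, with 3 arrays in every group except siControl at 96 h in growth media, which had 2. By the recipes given for the siRNA screen, growth media held serum, growth factors and dexamethasone, whereas differentiation media held insulin and apo-transferrin. Insulin can itself act on IGF receptors. The methods place the switch to differentiation media after the transfection, and cells of the 2 media at equal hours may therefore differ in how long the siRNA had acted.

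IGF1 and IGF2 are secreted peptides that act mainly through IGF1R, a receptor tyrosine kinase that feeds the PI3K, AKT and mTOR pathway and the MAPK pathway. IGF2R, the mannose-6-phosphate receptor, binds IGF2 and takes it to lysosomes. The IGF binding proteins hold IGFs outside the cell and can block or prolong their action, and IGFBP7 is a relative with weak affinity. In muscle, IGFs support both the growth of myoblasts and their fusion into myotubes, and IGF2 is known as an autocrine factor of differentiating myoblasts.

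Values are log2 signals of 1-colour arrays after quantile normalization, and a gene is given by its brightest tested probe. Changes were called at a Benjamini-Hochberg adjusted p under 0.05 together with a change of more than 2-fold in a limma fit over all probes. All p-values below are adjusted p-values of that fit unless another source is named, and they measure the spread between samples of a single line that the labels call biological replicates. The siRNA target ZNF148 was lower with siZNF148 in each comparison, with log2 changes of -1.53, -2.07 and -2.31 along the growth media series and of -2.34 and -2.74 in differentiation media. Myoblast markers were present, with 6 to 8 of 8 well above background on every array. The summed signal of differentiated-muscle markers was between 14.32 and 14.38 in siControl at 24 h and between 21.09 and 21.12 in siZNF148 at 96 h in differentiation media. Of these 12 markers, 0 were higher with siZNF148 at 24 h, 11 at 48 h in either media and at 96 h in growth media, and 5 at 96 h in differentiation media. The summed signal of 8 proliferation markers was 15.34 to 15.40 with siControl and 15.84 to 15.98 with siZNF148 at 24 h, with 1 marker called higher, whereas all 8 were lower with siZNF148 at 48 and 96 h in growth media, and 3 to 5 of 8 fibroblast markers were lower at 48 and 96 h in both media. In differentiation media 1 proliferation marker was higher and 2 were lower at 48 h, and 7 were lower at 96 h. The summed fibroblast signal was 17.24 to 17.30 in siControl at 48 h in differentiation media and 14.74 to 14.87 in siZNF148. Of markers of other cells, 2 of 5 for fat cells were tested (PLIN1, FABP4 and LEP were not), 4 of 4 for endothelium and 3 of 4 for leukocytes (CD68 was not), with summed signals of 8.89 to 10.12 for fat cells and 7.33 to 8.77 for endothelium. The leukocyte sum was 10.51 to 11.10 at 48 h and 11.73 to 11.82 at 96 h with siControl in growth media, 7.79 to 8.18 and 7.91 to 8.18 with siZNF148, and 7.36 to 8.84 in all other groups. Of its 3 tested genes only CD14 was called, with changes of -3.50 and -4.28 in growth media and -1.11 and -1.24 in differentiation media, while PTPRC differed by 0.47 and 0.30 in growth media. At 48 and 96 h the changes of the IGF members therefore came together with changes in muscle, cycle and fibroblast genes and in CD14. The part of each in the changes of the members was not tested. At 24 h 0 differentiated-muscle and 0 fibroblast markers were called. A lower signal per cell and fewer cells of a kind cannot be told apart in such bulk RNA.

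Replicate 1 of siControl at 48 h in growth media stood apart, since its summed differentiated-muscle signal was 19.64 while the lowest array of its group had 14.92. Without it the 7 members called at 48 h of growth media were called too, with IGF1R at 1.31, IGFBP4 at -1.83 and IGFBP6 at -1.7, and IGF2, IGFBP3 and IGFBP5 are given with and without it below. By the methods' t-test with Benjamini-Hochberg adjustment, with that array in, IGF1, IGF2, IGFBP3 and IGFBP5 missed the threshold there. All arrays at 24 h were on 1 slide with a scan of its own, and the labels call those cultures subconfluent and the later growth media cultures confluent, so comparisons between 24 h and later times cannot be told apart from slide or from confluence. The other 23 arrays lay on 3 slides. Over all 4 slides, the 73 within-slide differences of the members called below had the sign of the fit. They come from the arrays of the fit, and groups that do not overlap fix the sign. They are therefore no test of a slide effect.

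Promoter sequences are shown for the receptor IGF1R, for the binding proteins IGFBP3 and IGFBP5 that rose with siZNF148, and for IGFBP4 and IGFBP6 that fell, so that genes moving in opposite directions can be read side by side. RefSeq promoter windows on GRCh38.p14, from 250 bases before to 50 bases after the transcription start, were at hand for 8 of the 10 members. IGF2 and IGFBP7 had no window here. The array headers name hg19 or no build, and the windows were matched by gene. Capitals mark E-boxes (CANNTG, the motif class read by MYOD1 and MYOG) and GC boxes (GGGCGG), both searched on either strand, with overlapping matches merged.
IGF1R promoter, chr15:98648289-98648588, strand +: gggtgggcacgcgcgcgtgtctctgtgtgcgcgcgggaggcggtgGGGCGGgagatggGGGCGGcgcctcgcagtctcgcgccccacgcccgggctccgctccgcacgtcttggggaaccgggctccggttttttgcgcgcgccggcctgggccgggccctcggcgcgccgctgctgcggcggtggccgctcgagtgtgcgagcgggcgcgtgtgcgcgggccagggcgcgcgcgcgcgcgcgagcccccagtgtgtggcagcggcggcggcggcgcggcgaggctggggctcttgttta
IGFBP3 promoter, chr7:45921223-45921522, strand -: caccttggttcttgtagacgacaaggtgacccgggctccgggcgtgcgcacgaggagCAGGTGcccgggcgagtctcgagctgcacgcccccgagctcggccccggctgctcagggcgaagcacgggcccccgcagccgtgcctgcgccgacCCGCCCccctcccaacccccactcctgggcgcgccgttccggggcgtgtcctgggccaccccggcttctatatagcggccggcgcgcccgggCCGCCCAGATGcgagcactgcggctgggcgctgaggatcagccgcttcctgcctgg
IGFBP5 promoter, chr2:216695500-216695799, strand -: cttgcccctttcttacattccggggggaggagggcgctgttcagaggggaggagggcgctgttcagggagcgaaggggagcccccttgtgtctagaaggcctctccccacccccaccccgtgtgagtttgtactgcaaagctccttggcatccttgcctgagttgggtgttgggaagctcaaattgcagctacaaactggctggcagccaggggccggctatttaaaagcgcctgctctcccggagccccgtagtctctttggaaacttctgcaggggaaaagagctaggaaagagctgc
IGFBP4 promoter, chr17:40443200-40443499, strand +: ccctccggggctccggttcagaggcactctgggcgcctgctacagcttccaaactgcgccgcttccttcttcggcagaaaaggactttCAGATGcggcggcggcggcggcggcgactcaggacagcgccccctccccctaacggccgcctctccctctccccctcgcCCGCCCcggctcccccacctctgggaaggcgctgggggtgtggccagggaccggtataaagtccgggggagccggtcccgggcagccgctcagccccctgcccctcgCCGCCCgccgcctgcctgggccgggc
IGFBP6 promoter, chr12:53097417-53097716, strand +: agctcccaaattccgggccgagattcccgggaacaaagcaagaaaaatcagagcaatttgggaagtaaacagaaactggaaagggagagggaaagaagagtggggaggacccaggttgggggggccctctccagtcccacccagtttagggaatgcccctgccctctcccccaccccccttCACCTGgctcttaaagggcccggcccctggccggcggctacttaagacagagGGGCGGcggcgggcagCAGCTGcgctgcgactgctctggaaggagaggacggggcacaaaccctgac
The IGF1R window held 0 E-boxes and 2 GC boxes, and its GC content was 79.7% against a median of 58.7% over 35116 windows. The IGFBP3 window held 2 of each motif. Neither motif occurred in the IGFBP5 window. Among the lowered genes, IGFBP4 had 1 E-box and 2 GC boxes, and IGFBP6 had 2 E-boxes and 1 GC box. Over all windows 68.7% held an E-box and 45% a GC box, so these matches are common. A run of GGGGGGG, searched because ZNF148 is known to bind G-rich DNA, was found in 5.1% of all windows and in windows of IGF2R, IGFBP2 and IGFBP6, with no such run in the windows of IGF1R, IGFBP3, IGFBP4 and IGFBP5. The motifs were chosen after the expression values were known, and a match is a description of letters.

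The number of members that changed grew between 24 and 48 h. At 24 h 1 of the 10 changed, IGF1R, against 5.54% of all tested genes, 2.46% higher and 3.08% lower. After 48 h of growth media 5 rose and 2 fell, against 23.9% of all genes changed, 11.7% higher and 12.2% lower. The counts at 96 h of growth media were also 5 and 2, against 24.7% changed in all, 12.3% higher and 12.4% lower. IGFBP2 entered the list at 96 h and IGF1R, which was under 2-fold there, left it. In differentiation media 1 rose and 3 fell at 48 h, against 32.4% of all genes, 15.1% higher and 17.3% lower. At 96 h 2 rose and 2 fell, against 23.3%, 10.5% higher and 12.8% lower. With arrays scaled to their 75th percentile, 4 rose and 3 fell after 48 h of differentiation media, since IGF2, IGF1R and IGFBP5 passed there. By the adjusted p alone, with no 2-fold threshold, 3, 9 and 9 members passed at 24, 48 and 96 h of growth media, against 32.5%, 58% and 56.4% of all genes, and 7 and 5 in differentiation media, against 64.9% and 59.2%. The median log2 fold change of the members, which moved in both directions, was 0, 0.52 and 0.99 at 24, 48 and 96 h of growth media and 0.22 and 0.2 in differentiation media, whereas the median of all genes was between -0.061 and -0.00074.

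**Figure D1:**
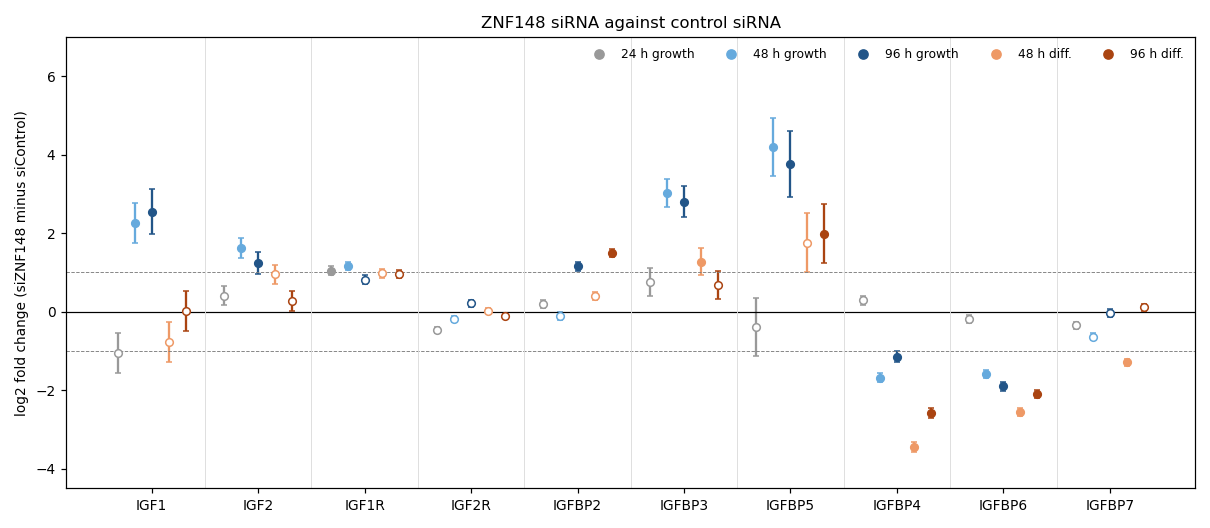
Log2 fold change of siZNF148 minus siControl for each member at 5 conditions, with bars for the standard error of the limma fit. Filled points passed both thresholds, open points did not, and dashed lines mark 2-fold in either direction. IGF1R is near the upper line in all conditions, and the fitted points of IGFBP3 and IGFBP5 are higher at 48 and 96 h in growth media than in the other conditions. IGFBP4 and IGFBP6 are below the lower line at 48 and 96 h in both media. The IGF1 points at 24, 48 and 96 h in growth media are fits against siControl arrays below background.

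IGF1R, the signalling receptor, was the only member past both thresholds at 24 h. By the adjusted p alone IGF2R (-0.47, adjusted p = 3.16e-05) and IGFBP7 (-0.35, adjusted p = 0.00468) passed there too. At 24 h the log2 signal of IGF1R was 9.11, 9.09 and 9.19 with siControl and 10.31, 10.20 and 10.02 with siZNF148. By 48 h of growth media it was 9.73, 9.09 and 9.48 against 10.65, 10.60 and 10.53. The groups did not overlap at either time. IGF1R rose by 1.05 ± 0.11 (SE) at 24 h (limma, adjusted p = 3.27e-07) and by 1.17 ± 0.11 after 48 h (1.53e-08). The difference was 0.82 at 96 h of growth media (adjusted p = 8.99e-06), and 0.98 and 0.96 in differentiation media (9.43e-08 and 2.08e-07), each under 2-fold. The effect at 48 h differed from that at 24 h by 0.12 ± 0.15 (SE, adjusted p = 0.63), and that at 96 h by -0.23 ± 0.16 (adjusted p = 0.325). Its size was so close to 2-fold that the call at 24 h was lost without siZNF148 replicate 1 (0.98) or after normexp background correction (0.95), and that at 48 h without siControl replicate 2 (0.99). The order of its 10 group means put all 5 siControl groups, from 9.13 to 9.86, below all 5 siZNF148 groups, from 10.18 to 10.84.

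IGF2R, the clearing receptor, kept within 0.63 log2 units over the 10 groups and was not called in any comparison. At 24 h it was 11.45, 11.38 and 11.31 with siControl and 10.95, 10.91 and 10.87 with siZNF148. That difference of -0.47 (adjusted p = 3.16e-05) was under 2-fold. Later in growth media the difference was -0.19 and then 0.21 (adjusted p = 0.0336 and 0.0352). In differentiation media the groups overlapped at both times.

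IGF2, the autocrine ligand of differentiating myoblasts, rose with siZNF148 at 48 and 96 h of growth media. Its brighter probe read 15.26, 15.16 and 15.05 with siControl at 24 h and 15.55, 15.67 and 15.50 with siZNF148. After 48 h of growth media it read 18.10, 16.45 and 16.52 with siControl and 18.63, 18.63 and 18.67 with siZNF148. The readings at 96 h were 17.55 and 17.43 against 18.73, 18.63 and 18.79. Every siZNF148 array was above every siControl array at these 3 times, and the siControl array nearest to siZNF148 at 48 h was replicate 1. IGF2 rose by 1.62 ± 0.25 (SE) at 48 h (adjusted p = 1.26e-05), or by 2.16 without that array, and by 1.23 ± 0.28 at 96 h (0.000953). Within the 3 slides that held both groups at 48 h the differences ran from 0.52 to 2.23. At 24 h the difference was 0.41 (adjusted p = 0.281, or 0.000236 in the fit of 28 arrays without replicate 1).

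The brighter IGF2 probe was close to the top of the measured range. On siZNF148 arrays at 48 and 96 h it ranked between 3 and 8 from the brightest of all probes, while on siControl arrays at 24 h it ranked between 655 and 748. No spot of it was marked as saturated. After quantile normalization a value follows from its rank, which leaves little room at that end. A second, dimmer IGF2 probe for the same accession, chosen for comparison after its values were seen, gave larger differences in all 5 comparisons. It read 11.74, 10.06 and 9.34 with siControl and 12.91, 12.91 and 13.46 with siZNF148 at 48 h of growth media. By 96 h it read 10.55 and 10.58 against 13.49, 13.12 and 13.50. By this probe IGF2 rose by 2.71 and 2.81 in growth media and by 1.40 and 1.21 in differentiation media at those hours (adjusted p = 3.78e-06, 1.14e-05, 0.00347 and 0.0118). In differentiation media the brighter probe gave 0.95 and then 0.28 (adjusted p = 0.00275 and 0.394), so the 2 probes disagreed on the call there. Whether the top of the range accounts for that was not tested.

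IGF1, the other ligand, was dim. In growth media the probe was not well above background on any siControl array, nor on any siZNF148 array at 24 h. With siZNF148 its 48 h arrays read 6.20, 5.01 and 4.60 and those at 96 h read 5.15, 5.05 and 5.08, well above background on all 6 arrays, while siControl gave 3.55, 3.41 and 2.06 and then 2.08 and 3.01. Each siControl array was then set to its own limit of detection (its lowest signal among probes well above background). On that basis IGF1 was at least 2.1-fold higher with siZNF148 at 48 h and at least 1.97-fold higher at 96 h. The fitted differences, which used the siControl values below background, were 2.26 and 2.55 (limma, adjusted p = 0.00076 and 0.000765). IGF1 was called by these fits, and its bound at 96 h was under 2-fold. After normexp background correction those differences were 0.51 and 0.38 and were not called. That correction added an offset of 50, which by itself narrows log2 differences of dim signals, so the lost calls do not test IGF1. In differentiation media the groups overlapped, at 5.03, 6.25 and 6.64 with siControl and 5.48, 4.92 and 5.25 with siZNF148 at 48 h, and the difference was -0.76 (adjusted p = 0.234). At 96 h it was 0.02 (adjusted p = 0.986). A second IGF1 probe was well above background on 2 arrays only.

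**Figure D2:**
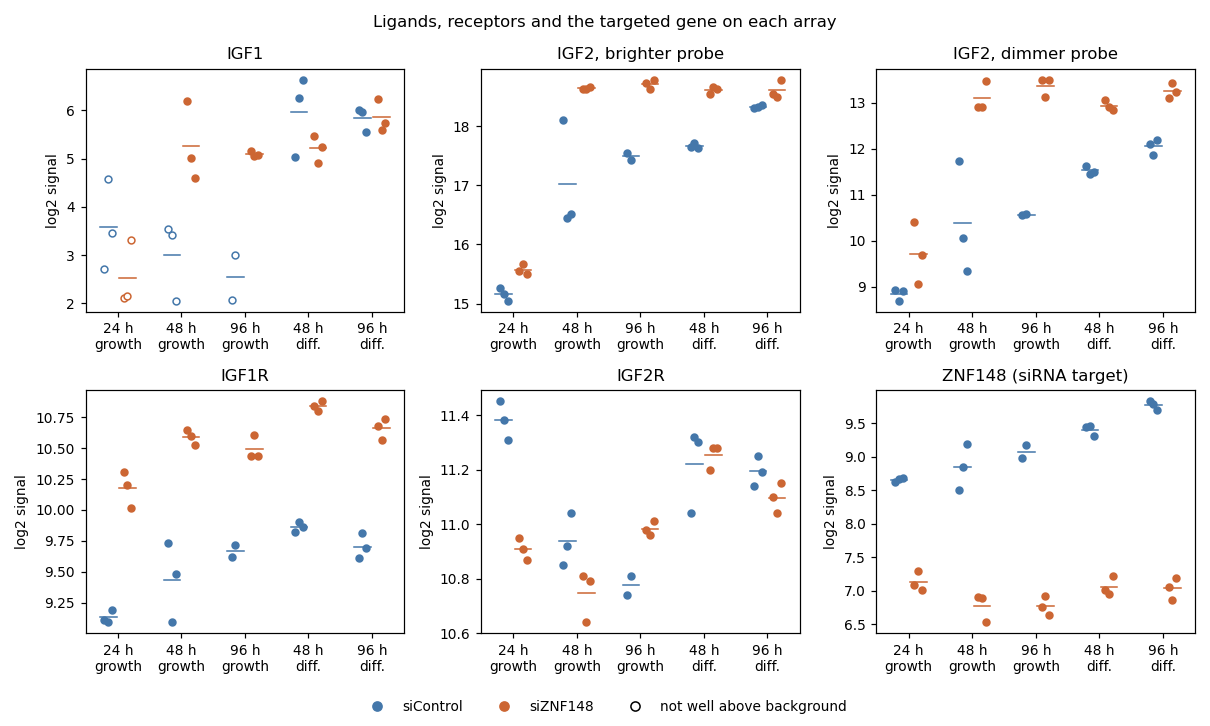
Log2 signal on each of 29 arrays for IGF1, both IGF2 probes, IGF1R, IGF2R and the siRNA target ZNF148, by hour and media (diff., differentiation). Points are arrays, bars are group means and open points were not well above background. The brighter IGF2 probe levels off near 18.6 in siZNF148 cells while the dimmer probe keeps larger gaps between siControl and siZNF148, and IGF1 lies above background in growth media only with siZNF148.

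IGFBP3 and IGFBP5 rose with siZNF148 at 48 and 96 h of growth media. IGFBP3, the main carrier of IGFs in serum, read 12.14, 9.71 and 9.89 with siControl at 48 h of growth media and 13.56, 13.57 and 13.68 with siZNF148. At 96 h it read 11.06 and 11.15 against 13.88, 13.90 and 13.98. The siZNF148 arrays were tightly grouped, and the high siControl value at 48 h again was replicate 1. IGFBP3 rose by 3.03 ± 0.35 (SE) at 48 h (adjusted p = 2.92e-07), or by 3.81 without that array, and by 2.81 ± 0.39 at 96 h (3.96e-06). Within slides the differences at 48 h ran from 1.43 to 3.97. In differentiation media it read 11.15, 11.32 and 11.42 against 12.58, 12.56 and 12.59 at 48 h, a rise of 1.28 (adjusted p = 0.00378). The difference after 96 h of differentiation media was 0.68 (adjusted p = 0.123) with no overlap between 11.78, 11.78 and 11.79 in siControl and 12.43, 12.46 and 12.49 in siZNF148. The spread in this fit is shared by all groups, and without the replicate 1 array the adjusted p of the same 0.68 was 1.77e-08. The array carries 10 spots of this probe, with a median SD between spots of 0.039.

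IGFBP5, a binding protein produced by differentiating myoblasts, ranged from below background to a group mean of 11.06. At 24 h it was well above background on 1 of 6 arrays. By 48 h of growth media it read 7.74, 3.60 and 3.99 with siControl, of which only replicate 1 was well above background, and 9.32, 9.30 and 9.32 with siZNF148. At 96 h it read 5.65 and 5.99 against 9.47, 9.58 and 9.69. These groups were far apart. IGFBP5 rose by 4.20 ± 0.75 (SE) at 48 h (adjusted p = 6.93e-05), by 3.45 without replicate 2 and 3.64 without replicate 3 of siControl, and by 3.76 ± 0.84 at 96 h (0.000792). Without replicate 1 no siControl array at 48 h was above background, and IGFBP5 was at least 30.7-fold higher with siZNF148. On the slide that held replicate 1 the difference was 1.55. In differentiation media the siControl arrays had themselves reached 8.27, 9.53 and 10.08 at 48 h, below 11.06, 10.83 and 11.28 with siZNF148. That difference of 1.76 had an adjusted p of 0.0548 and passed in the fit of 28 arrays without replicate 1 (adjusted p = 0.00389). At 96 h it read 7.73, 7.89 and 7.76 against 9.80, 9.82 and 9.73, a rise of 1.99 ± 0.75 (adjusted p = 0.0331) that missed the threshold when any 1 of its 6 arrays was left out, with adjusted p from 0.0616 to 0.0714, and had an adjusted p of 0.00166 in the fit of 28 arrays without siControl replicate 1 at 48 h of growth media.

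IGFBP4, which holds IGFs until proteases such as PAPPA cleave it, fell at 48 and 96 h in both media. At 24 h its siZNF148 arrays read 10.68, 10.68 and 10.76, above the 10.39, 10.37 and 10.48 of siControl, a difference of 0.29 (adjusted p = 0.0991). Its growth media arrays at 48 h read 10.57, 11.12 and 10.91 with siControl and 9.12, 9.11 and 9.32 with siZNF148. In differentiation media the readings at that hour were 11.66, 11.34 and 11.14 against 8.02, 7.72 and 8.06. The groups were fully apart in both media. In growth media the changes were -1.68 ± 0.12 (SE) at 48 h and -1.15 ± 0.14 at 96 h (adjusted p = 3.63e-10 and 4.93e-07). They were -3.45 ± 0.12 and -2.58 ± 0.12 in differentiation media (1.44e-15 and 3.58e-13), the former a 10.9-fold fall. The change of the effect between media was itself past the threshold, at -1.76 ± 0.17 at 48 h and -1.43 ± 0.18 at 96 h (6.08e-08 and 6.33e-06).

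IGFBP6, which binds IGF2 with preference, fell alongside IGFBP4. After 48 h of growth media it read 12.92, 13.35 and 13.22 with siControl and 11.42, 11.63 and 11.68 with siZNF148. In differentiation media it read 14.19, 14.12 and 14.30 against 11.77, 11.52 and 11.65. The siControl arrays were thus highest exactly where the gap was widest. The changes of IGFBP6 were -1.58 ± 0.10 (SE) and -1.90 ± 0.11 at 48 and 96 h of growth media (adjusted p = 5.77e-11 and 2.07e-11) and -2.55 ± 0.10 and -2.09 ± 0.10 in differentiation media (8.37e-15 and 5.56e-13). At 24 h the difference was -0.19 (adjusted p = 0.216). The falls of IGFBP4 and IGFBP6 came beside the lower fibroblast markers given above, whose part in them was not tested.

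IGFBP2, a carrier of both ligands, passed the threshold at 96 h in both media and at no other time. With siControl it read 6.01 and 6.12 in growth media and 5.41, 5.35 and 5.18 in differentiation media at 96 h. With siZNF148 it read 7.26, 7.22 and 7.21 and then 6.77, 6.72 and 6.95. All other group means lay between 5.42 and 5.95. At that time IGFBP2 rose by 1.16 ± 0.11 (SE) in growth media and by 1.5 ± 0.10 in differentiation media (adjusted p = 2.52e-08 and 6.94e-11), whereas the differences at 24 and 48 h were from -0.12 to 0.40. Normexp background correction, whose offset of 50 narrows differences of dim probes, gave 0.68 and 0.76, under 2-fold. The effect at 96 h exceeded that at 24 h in growth media by 0.98 ± 0.15 (adjusted p = 2.47e-05), just under 2-fold.

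IGFBP7 was changed in a single condition. After 48 h of differentiation media it read 14.55, 14.61 and 14.60 with siControl and 13.18, 13.28 and 13.42 with siZNF148, a fall by 1.29 ± 0.088 (SE, adjusted p = 4.15e-11). In growth media the difference at that hour was -0.64 (adjusted p = 3.2e-06), and at 96 h it was -0.03 and 0.11 in growth and differentiation media. Its second probe gave -0.42, -0.71 and -0.05 in growth media and -1.39 and 0.06 in differentiation media, with the same single call. From 48 to 96 h in differentiation media IGFBP7 rose by 1.15 in siZNF148 cells (adjusted p = 2.7e-09), and at 96 h it overlapped with siControl. That rise was 0.99 under 75th percentile scaling.

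**Figure D3:**
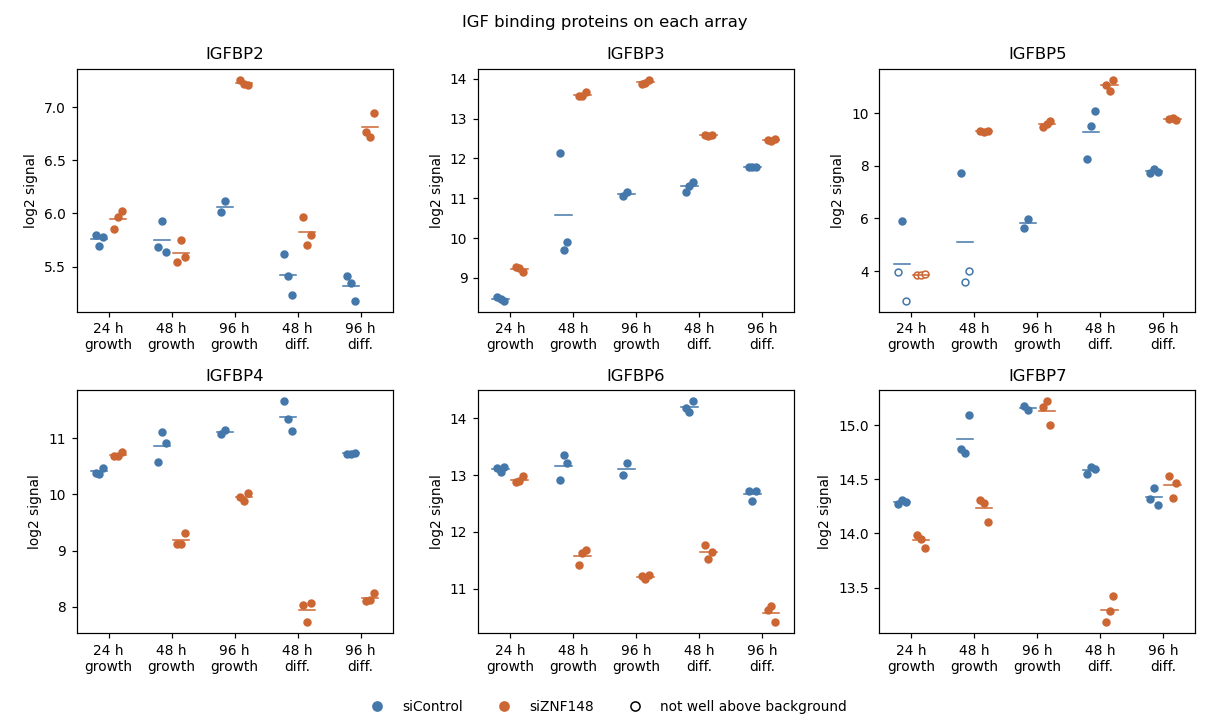
Log2 signal of the 6 IGF binding proteins on each array, by hour and media (diff., differentiation). Points are arrays, bars are group means and open points were not well above background. IGFBP3 is higher with siZNF148 in every condition, and IGFBP5 is higher from 48 h. IGFBP4 and IGFBP6 are lower from 48 h, IGFBP2 is farthest apart at 96 h and IGFBP7 at 48 h in differentiation media.

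Differentiation media was compared with growth media in each siRNA group, to give the effect of media with and without siZNF148. With siControl 3 members rose at 48 h, against 16% of all genes changed, 7.77% higher and 8.22% lower. At 96 h 1 rose, against 15.1%, 6.81% higher and 8.25% lower. By the adjusted p alone 9 and 7 passed, against 49.8% and 43.8%. IGF1 was at least 3.43-fold higher in differentiation media at 48 h and at least 3.31-fold at 96 h, as no growth array was well above background. The fitted log2 differences of IGF1, which used those growth arrays as measured, were 2.97 and 3.3 (limma, adjusted p = 5.3e-05 and 8.21e-05). After normexp with its offset of 50 they were 0.86 and 0.69, which were not called. IGFBP5 rose by 4.19 at 48 h (adjusted p = 9.37e-05), by 3.43 without siControl replicate 2 in growth media and 3.62 without replicate 3, and was at least 30.3-fold higher without replicate 1. With all arrays in, that call was lost in a fit of only the arrays compared and by the methods' t-test with Benjamini-Hochberg adjustment. At 96 h the IGFBP5 difference was 1.98 (adjusted p = 0.0771, or 0.00627 in the fit of 28 arrays without replicate 1). IGFBP6 rose by 1.04 at 48 h (adjusted p = 3.16e-08), but by 0.92 without replicate 1 in growth media and 0.99 without replicate 3 in differentiation media, both under 2-fold, as it was with array weights (0.87). Without replicate 1, IGF2 and IGFBP3 also passed at 48 h, at 1.19 and 1.5. With siZNF148 1 member fell at 48 h, against 3.97% of all genes changed, 1.13% higher and 2.84% lower, and 2 fell at 96 h, against 6.39%, 1.45% higher and 4.95% lower. By the adjusted p alone 3 and 5 passed, against 19.1% and 28.5%. In the fit of 28 arrays without siControl replicate 1, which is not in this comparison, IGFBP3 (-1.02, adjusted p = 7.96e-10) and IGFBP5 (1.74, adjusted p = 0.0156) also passed at 48 h. IGFBP4 fell by 1.25 at 48 h (adjusted p = 3.11e-07) and fell by 1.81 at 96 h (9.96e-10), and IGFBP3 fell by 1.46 at 96 h (0.00427). IGF1 moved by -0.05 and IGF2 by -0.03 at 48 h in the siZNF148 cells (adjusted p = 0.988 and 0.986). These media comparisons share their arrays with the siZNF148 comparisons above.

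**Figure D4:**
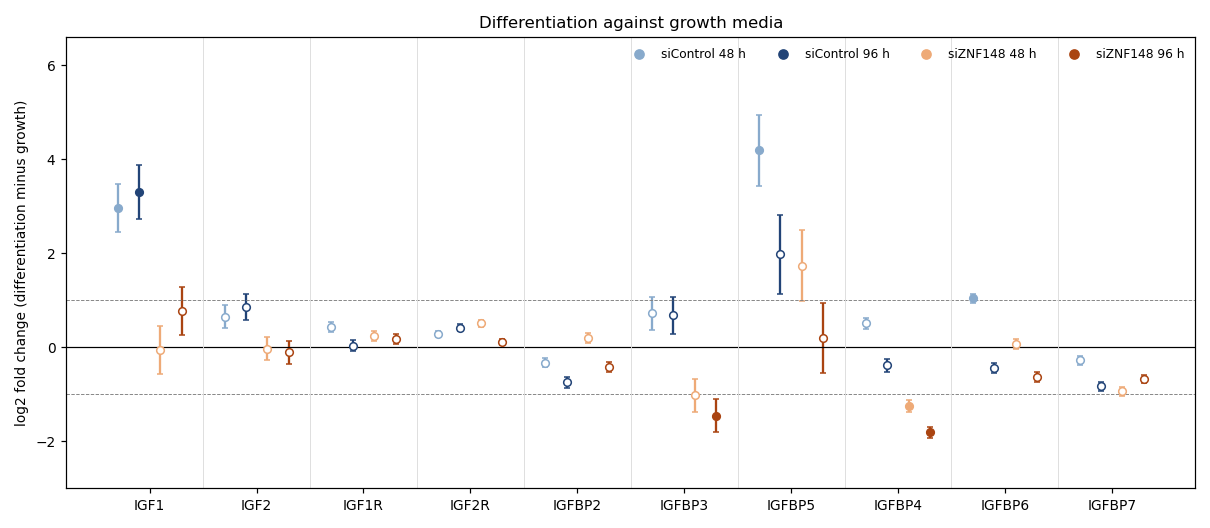
Log2 fold change of differentiation minus growth media for each member at 48 and 96 h, separately with siControl and siZNF148, with bars for the standard error of the limma fit. Filled points passed both thresholds, open points did not, and dashed lines mark 2-fold in either direction. With siControl IGF1, IGFBP5 and IGFBP6 are filled above 0 at 48 h, and with siZNF148 only IGFBP4 and IGFBP3 are filled, below 0. The siControl points of IGF1 are fits against growth arrays below background.

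Between 48 and 96 h in differentiation media, 1 member fell with siControl, against 9.97% of all genes changed, 5.76% higher and 4.22% lower. With siZNF148 1 rose and 1 fell, against 8.05%, 4.33% higher and 3.72% lower. IGFBP6 changed by -1.54 with siControl and by -1.07 with siZNF148 (adjusted p = 4.22e-10 and 6.78e-08), the latter by -0.99 without siZNF148 replicate 3 at 96 h and after normexp. IGFBP7 was the member that rose, as given above. By the adjusted p alone 4 and 3 members passed, against 42.5% and 36.8%.

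The change of the siZNF148 effect between conditions was tested for each member. From 24 to 48 h in growth media the effect differed for 6 members, against 20.6% of all genes, and from 24 to 96 h for 5, against 22.9%. Between media it differed for 3 members at 48 h, against 17.2%, and for 3 at 96 h, against 12.5%. By the adjusted p alone 7 and 7 passed between times, against 45.7% and 47.2%, and 6 and 4 between media, against 42.3% and 31.7%. The 3 that differed between media were IGF1, IGFBP3 and IGFBP4 at both times. The effect on IGFBP3 was smaller in differentiation than in growth media, by -1.75 ± 0.50 (SE) and -2.13 ± 0.53 log2 units, whereas the fall of IGFBP4 was larger. IGFBP5 had large shifts of -2.44 and -1.77 between media, with a standard error of 1.1 (adjusted p = 0.0898 and 0.294). That error pools the spread of all groups, which for IGFBP5 was largest in siControl at 48 h in growth media (SD 2.3, replicate 1 included). Without that replicate, the IGFBP5 effects at 48 h were 5.52 in growth and 1.76 in differentiation media. The former used siControl values below background and has no exact size. In that fit 5 members, rather than 3, differed between media at 48 h.

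Other genes of the IGF pathway changed in both directions. Of 75 listed genes 72 were tested, and 4 changed with siZNF148 at 24 h (5.56%, against 5.54% of all genes). In growth media 19 changed at 48 h (26.4%, against 23.9%) and 18 at 96 h (25%, against 24.7%). In differentiation media 25 changed at 48 h (34.7%, against 32.4%) and 11 at 96 h (15.3%, against 23.3%). These shares were close to those of all genes, and at 96 h of differentiation media below them. By the adjusted p alone 36, 56 and 55 of the 72 passed in growth media, and 55 and 49 in differentiation media. Each of these shares of the 72 was above that of all genes. The shares of all genes were 32.5%, 58% and 56.4% in growth media and 64.9% and 59.2% in differentiation media. Among receptors, adaptors and signalling genes 10 of 48 (20.8%) changed at 48 h in growth media, against 23.9% of all genes, 7 of them higher. DEPTOR, an inhibitor of mTOR, had the largest rise of the listed genes measured on every array, at both hours in both media, by 4.24 and 4.17 in growth media and by 4.17 and 3.91 in differentiation media (adjusted p = 1.97e-06, 1.18e-05, 1.65e-06 and 5.8e-06). FOXO4, a transcription factor that AKT restrains, rose by 3.13 and 2.92 in growth media and by 2.29 after 96 h of differentiation media. GRB10, an adaptor that dampens IGF1R and insulin receptor signals, rose by 1.95 and 1.80 at 48 and 96 h in growth media. The kinase MAP2K1 rose by 3.00 at 48 h in differentiation media. GRB14, a relative of GRB10, fell by 1.48 at 24 h but rose by 2.71 at 96 h in differentiation media. PIK3CD, a catalytic subunit of PI3K, changed by -2.62 and -1.63 at 48 and 96 h of growth media.

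Of the 16 tested extracellular genes of the list, 1 changed at 24 h (6.25%, against 5.54% of all genes), lower. At 48 h in growth media 6 changed (37.5%, against 23.9%), 5 of them lower, and at 96 h 5 (31.2%, against 24.7%), 4 of them lower. In differentiation media 7 changed at 48 h (43.8%, against 32.4%), 4 of them lower, and 3 at 96 h (18.8%, against 23.3%), all lower. MMP2, a protease that can cleave binding proteins, changed by -1.60 and -1.59 in growth media at 48 and 96 h and by -4.01 and -2.78 in differentiation media. HTRA1, another such protease, changed by -2.48 and -1.38 in differentiation media, and LRP1, an uptake receptor that IGFBP3 can bind, by -2.94 and -1.81. STC1, an inhibitor of the PAPPA protease, changed by -2.33 at 24 h and by -2.83 at 96 h of growth media. The integrin subunit ITGB3 rose by 2.75 at 48 h in differentiation media. Of the RNA-level regulators, IGF2BP1, which binds IGF2 mRNA, rose by 1.32 at 24 h (adjusted p = 2.42e-08), and HMGA2, a chromatin protein, fell by 2.33 at 48 h in growth media (adjusted p = 8.62e-13).

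The genes whose group means followed each member most closely differed between members. Over the 10 group means, the nearest for IGF2 were the muscle genes MYBPH and ACTA1, with Pearson r of 0.996 and 0.993. For IGFBP4 they were FBN1, a microfibril protein, and MMP2, at 0.988 and 0.984. For IGFBP2 they were OAS3 and OAS2, interferon-induced enzymes, at 0.985 and 0.942. EIF4EBP2, a repressor of translation held by mTOR, was among the nearest to IGF1R at 0.962, after BOD1 at 0.966. The others were MAP1A and BLCAP for IGF1 (0.969 and 0.968), KRT71 and FES for IGF2R (0.89 and 0.848), and SOD3 and MMP11 for IGFBP3 (0.973 and 0.97). IGFBP5 was followed by EHD4-AS1 and FXR1 (0.982 and 0.981), IGFBP6 by DLG3 and KYAT3 (0.984 and 0.979), and IGFBP7 by COL8A2 and NFE2L3 (0.964 and 0.95). These points share arrays and were the highest of about 13920 genes that spanned more than 2-fold, so they are descriptions only.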

How the data were processed

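The authors deposited spot intensities (gProcessedSignal) made in Agilent Feature Extraction (10.7.3.1 in the file headers), with background subtracted and no scaling between arrays. Their deposited log2 matrix served as an alternative. Control spots and outliers were dropped, log2 signals of equal probes were averaged, and the 29 arrays were quantile normalized. Probes that were well above background on 2 arrays or more (38714) entered limma 3.58.1 in R 4.3.3 (lmFit and eBayes, 2-sided, 10 group means). Depending on the array, 41.5% to 56.5% of probes were well above background, and the number of arrays limits the precision. Genes were represented by the tested probe of highest mean signal. Pathway genes were named as the 3 largest rises and 3 largest falls, at most, of each siZNF148 comparison among called genes measured on all its arrays, and likeness as the 2 highest Pearson r. A group below background gave a bound. The fit was tested on simulated data. Members and lists were chosen with earlier results of these data known. Same-numbered replicates did not vary together (r from -0.14 to 0.12), so they were not paired. Alternatives covered scaling, background, filters, blocks, weights, tests and left-out arrays.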

Additional observations from a re-analysis of the deposited data

Results flagged for a closer look

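The effect of siZNF148 was found to differ between times or media, by a test of the difference in the same limma fit, for 6 members. All values below are differences of log2 fold changes. Relative to 24 h in growth media, the effect at 48 h and 96 h was higher by 3.32 and 3.61 for IGF1, by 2.27 and 2.06 for IGFBP3 and by 4.59 and 4.15 for IGFBP5. For IGF2 it was higher by 1.21 at 48 h. For IGFBP4 the change was -1.97 at 48 h and -1.44 at 96 h, and for IGFBP6 it was -1.39 and -1.71. These contrasts span slides and confluence, since the arrays at 24 h were all on 1 slide and from subconfluent cells. Relative to growth media, the effect in differentiation media at 48 h and 96 h changed by -3.02 and -2.53 for IGF1, by -1.75 and -2.13 for IGFBP3 and by -1.76 and -1.43 for IGFBP4. IGF1 was below background in the siControl arrays in growth media and in the siZNF148 arrays at 24 h, and IGFBP5 on 5 of the 6 arrays at 24 h, so their differences have no exact size.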

How the results depend on the processing

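Of 110 results (10 members in 11 comparisons) 33 were called, of which 17 held under every alternative run, 16 lost the call under at least 1 and 0 turned direction. Of those not called, 39 passed under at least 1 alternative. These include the setting with no fold threshold, which passes any result with an adjusted p under 0.05, and for many it was the only one. A block for replicate number (the pairing check found no shared variation) left every count of called members as it was, at 1, 7, 7, 4 and 4 for siZNF148 against siControl in the order 24, 48 and 96 h growth and 48 and 96 h differentiation media, and changed no member's call. Calls of IGF1 and IGFBP2, 2 dim probes, were lost after normexp background correction. Its offset of 50 narrows log2 differences of dim signals by itself, so it is no test of those calls. The IGFBP5 call at 96 h differentiation media was lost without any 1 of its arrays. The causes of the other lost calls were not tested.

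Counts that moved by more than 1.5 times were these. With no fold threshold the siZNF148 counts were 3 at 24 h growth and 7 at 48 h differentiation media, the media counts 9 and 7 with siControl and 3 and 5 with siZNF148 at 48 and 96 h, the count from 48 to 96 h with siControl 4, the count of effects that differed between media at 48 h 6, and the pathway counts 36, 56, 55, 55 and 49 in the order above. The 75th percentile scaling gave 7 at 48 h differentiation media. Normexp gave 0 at 24 h, 1 for siControl media at 48 h, 3 for siZNF148 media at 48 h and 2 from 48 to 96 h with siControl. The methods' t-test with Benjamini-Hochberg adjustment gave 3 at 48 h growth media, 1 and 2 for siControl media at 48 and 96 h and 3 for siZNF148 media at 48 h. Unadjusted it gave 2 for siControl media at 96 h, 3 for siZNF148 media at 48 h and 2 from 48 to 96 h with siControl. Array weights and the fit of 28 arrays without siControl replicate 1 at 48 h growth media, where 27% of all genes then changed at 48 h, each gave 2 for siControl media at 96 h, 3 for siZNF148 media at 48 h, 2 from 48 to 96 h with siControl and 5 effects that differed between media at 48 h. For siControl media at 96 h, fits of only those arrays and averaged probes each gave 2. For siZNF148 media at 48 h, fits of only those arrays gave 3, and averaged probes, slide as a block and a stricter filter each gave 2. Leaving out single arrays gave 1 to 3 from 48 to 96 h with siZNF148, 1 to 2 for siZNF148 media at 48 h, 0 to 1 at 24 h and 3 to 5 for effects that differed between media at 48 h.

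The 13 results that turned sign were all uncalled and near 0, except IGFBP5 at 24 h. For IGF1, the media difference with siZNF148 at 48 h (-0.05) was 0.00 with array weights and 0.18 with averaged probes, and ran from -0.38 to 0.41 over left-out arrays. The IGF1 change from 48 to 96 h with siControl (-0.14) ran from -0.61 to 0.20, and its siZNF148 difference at 96 h differentiation media (0.02) from -0.17 to 0.15. For IGF1R, the siControl media difference at 96 h (0.03) was -0.05 at the 75th percentile and ran from -0.02 to 0.08. For IGF2, the change from 48 to 96 h with siZNF148 (0.00) was 0.13 at the 75th percentile, 0.07 with array weights, 0.01 with normexp, 0.16 with averaged probes and 0.33 by the second probe, an alternative chosen after seeing the data, and ran from -0.10 to 0.06. The IGF2 media difference with siZNF148 was 0.10 at 48 h and 0.16 at 96 h at the 75th percentile (otherwise -0.03 and -0.11), the former running from -0.06 to 0.01. For IGF2R, the siZNF148 difference at 48 h differentiation media (0.03) was -0.06 with array weights and -0.02 with normexp and ran from -0.05 to 0.08, and its change from 48 to 96 h with siControl (-0.03) ran from -0.11 to 0.02. For IGFBP5, the siZNF148 media difference at 96 h (0.20) was -0.11 with slide as a block, and the siZNF148 difference at 24 h (-0.39) ran from -1.07 to 0.45. For IGFBP6, the siZNF148 media difference at 48 h (0.07) ran from -0.01 to 0.13. For IGFBP7, the siZNF148 difference at 96 h growth media (-0.03) was 0.09 with slide as a block and ran from -0.08 to 0.04.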
